A study of Schizosaccharomyces pombe with 8 samples.

Results

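The short rRNA genes of fission yeast (Schizosaccharomyces pombe) comprise 33 annotated rows on chromosomes I, II and III that are under 200 nt long, of 49 rRNA rows and 19343 rows in the table. They were chosen by annotation and length, and no measured value entered the rule. By annotation 30 of them are 5S rRNA genes and 3 are 5.8S rRNA genes. Another 6 annotated 5S rows are 200 nt or longer and lie outside the rule, the longest copy inside it being SPRRNA.07 with 198 nt and the shortest outside it SPRRNA.04 with 209 nt. ChIP-seq, the sequencing of DNA recovered with an antibody from fixed chromatin, was done in the wild-type strain YAM2394. Its mating type is h+, and it carries the markers ade6-M210 and leu1-32 and the deletion ura4-D18. Cells were grown in YES, a rich medium, at 32°C to mid-log phase, then fixed with formaldehyde (1%, 10 min). Antibodies to total histone H3, to acetylated lysine 14 of H3 (H3K14ac) and to H4 acetylated at lysines 5, 8, 12 and 16 (H4ac) were used, with 2 biological replicates each. The 2 Input libraries of the study were not analysed here. There is 1 genotype and 1 growth condition, so that all comparisons are between antibodies or between genomic features.

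5S rRNA is a component of the large ribosomal subunit and is made by RNA polymerase III. The factor TFIIIA binds a control region inside the gene, and TFIIIC and TFIIIB then bring in the polymerase. In fission yeast, 5S genes and tRNA genes commonly also have a TATA element upstream of the gene, and the 5S genes are scattered as single copies among protein-coding genes, whereas in budding yeast they lie within the rDNA repeats. 5.8S rRNA is cut from the precursor that RNA polymerase I transcribes from the rDNA together with 18S and 28S rRNA. Genes transcribed by RNA polymerase III are known to hold few nucleosomes in yeasts, and acetylation of H3 and H4 is commonly found on transcribed chromatin.

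Nearly all 5S rows held a single sequence. Of the 30, 28 lie at a 119-nt gene with at most 3 differences from the commonest sequence, and 19 of these 28 were identical to it. These near-identical copies lie 12 on chromosome I, 10 on chromosome II and 6 on chromosome III. The rows of SPRRNA.53 and SPRRNA.55 are 115 nt long and begin at base 5 of the gene. In 19 of the 28 the annotated row extends beyond the gene, by up to 48 nt before it and 44 nt after it. Sequences are from RefSeq (ASM294v3), in which all 47 nuclear rRNA rows have the coordinates of the table. The commonest gene is shown as it stands at SPRRNA.39 (chrII:2032410-2032528, + strand), followed by 4 copies whose substitutions let many reads inside the gene be assigned to them, with capitals for the bases that differ from the commonest gene.
SPRRNA.39: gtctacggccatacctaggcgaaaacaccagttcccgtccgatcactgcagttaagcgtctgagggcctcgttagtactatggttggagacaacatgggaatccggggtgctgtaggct
SPRRNA.12: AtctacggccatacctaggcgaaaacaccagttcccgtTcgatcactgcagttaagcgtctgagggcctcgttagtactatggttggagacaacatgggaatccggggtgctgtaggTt
SPRRNA.15: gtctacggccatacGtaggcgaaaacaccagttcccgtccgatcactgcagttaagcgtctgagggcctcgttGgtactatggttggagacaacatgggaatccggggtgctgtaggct
SPRRNA.35: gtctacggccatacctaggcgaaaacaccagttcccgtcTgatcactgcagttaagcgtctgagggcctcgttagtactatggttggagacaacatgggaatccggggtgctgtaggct
SPRRNA.53: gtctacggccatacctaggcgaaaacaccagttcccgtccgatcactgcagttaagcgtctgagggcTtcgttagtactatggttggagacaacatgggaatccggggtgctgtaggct
Counted from 1 at the 5′ end of the gene, SPRRNA.12 (chrI:912230-912348, - strand) carries G1A, C39T and C118T. SPRRNA.15 (chrI:3547900-3548018, - strand) carries C15G and A74G, SPRRNA.35 (chrII:2322733-2322851, + strand) carries C40T and SPRRNA.53 (chrI:1563475-1563593, + strand) carries C68T.

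The other 2 annotated 5S rows are divergent. They are shown because their densities stood apart from those of the other 5S rows, with capitals for bases that are not identical to the commonest gene in a gapped alignment.
SPRRNA.54: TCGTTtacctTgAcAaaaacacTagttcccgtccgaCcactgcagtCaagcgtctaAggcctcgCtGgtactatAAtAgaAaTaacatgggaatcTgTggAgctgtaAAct
SPRRNA.41: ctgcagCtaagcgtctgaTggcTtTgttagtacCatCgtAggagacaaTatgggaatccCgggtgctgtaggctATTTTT
SPRRNA.54 (chrII:3096968-3097078, - strand) matched the commonest gene at 87 of 108 aligned columns, or 80.6%. SPRRNA.41 (chrII:3171566-3171645, - strand) is 80 nt long and aligned only to bases 46 to 119 of the gene, with 65 of 74 columns identical (87.8%).

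The 3 5.8S rows SPRRNA.50, SPRRNA.51 and SPRRNA.52 are identical to each other over 165 nt. The shared sequence is shown because no read inside it can be assigned to 1 of the 3.
SPRRNA.50: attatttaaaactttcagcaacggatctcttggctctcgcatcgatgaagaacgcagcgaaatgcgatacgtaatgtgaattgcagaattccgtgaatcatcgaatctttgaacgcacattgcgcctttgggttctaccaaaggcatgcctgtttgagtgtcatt
The rows lie near both ends of chromosome III in the reference, at chrIII:9842-10006 (- strand), chrIII:20712-20876 (- strand) and chrIII:2443248-2443412 (+ strand).

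The flanks of the 28 near-identical copies differ from copy to copy, but most share a TATA and a run of T. The letters TATA, which read the same on both strands, occurred within 50 nt before the start of 24 of the 28 genes (85.7%). The same window held TATA before 133 of 171 nuclear tRNA genes (77.8%) and before 1927 of 5118 nuclear protein-coding genes (37.7%). A TATA whose first base lay 33 to 20 nt before the start was present in 22 of the 28 (78.6%), against 53.2% of tRNA genes and 12.1% of protein-coding genes. A run of at least 5 T, a sequence at which RNA polymerase III stops, began within 40 nt after the end of 26 of the 28 genes (92.9%), against 95.9% of tRNA genes and 18.9% of protein-coding genes. The 50 bases before 4 genes are shown, with the TATA in capitals in the first 3, and SPRRNA.12 as one of the 4 genes without it (the others being SPRRNA.13, SPRRNA.34 and SPRRNA.55).
SPRRNA.39 upstream: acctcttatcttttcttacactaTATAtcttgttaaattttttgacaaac
SPRRNA.24 upstream: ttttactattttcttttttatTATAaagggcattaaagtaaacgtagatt
SPRRNA.53 upstream: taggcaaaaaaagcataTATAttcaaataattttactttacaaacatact
SPRRNA.12 upstream: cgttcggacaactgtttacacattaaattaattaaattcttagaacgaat
The 40 bases after SPRRNA.24 show a T run in capitals, which was not found after SPRRNA.38 and SPRRNA.39.
SPRRNA.24 downstream: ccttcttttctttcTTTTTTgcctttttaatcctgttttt
These matches describe letters of the reference and not bound factors.

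The deposited values are tags divided by row length, here called density (tags per nt), which the authors scaled by library. Rows of protein-coding genes held 14013995 to 15214197 tags per library, with a median density of 1.23 to 1.24 tags per nt. A log2 ratio of 0 between 2 antibodies therefore marks about a typical gene and not an absolute amount of acetylation. The ura4 gene, deleted in this strain, was listed at 0 tags in all 6 libraries. The near-identical copies held 15 to 68 tags in an H3 library, 41 to 209 in an H3K14ac library and 51 to 203 in an H4ac library. Counting alone gave a standard error of 0.127 to 0.237 for the log2 H3 level of such a copy over both replicates, the largest counting error of the 3 antibodies.

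How reads were shared among identical copies limits what a value per copy means. Of the 70 positions at which a 50-base read lies wholly inside the gene, none was unique in the genome for 23 of the 28 near-identical copies. SPRRNA.15 had 61 unique positions, SPRRNA.53 had 50, SPRRNA.35 had 40, SPRRNA.12 had 39 and SPRRNA.18 had 1. With the reads that overhang the row, 37.2 to 91.9% of the read positions of the 28 copies were unique, against 100% in the divergent rows and 0 to 9.35% in the 5.8S rows. The study's methods describe unique mapping, yet rows without a unique position hold tags. All 68 nuclear rows of at least 150 nt without one, coding exons aside, held at least 84 H3 tags in each library. A tag inside most copies may thus come from another copy and cannot be assigned, whereas a tag at a unique position can be.

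**Figure D1:**
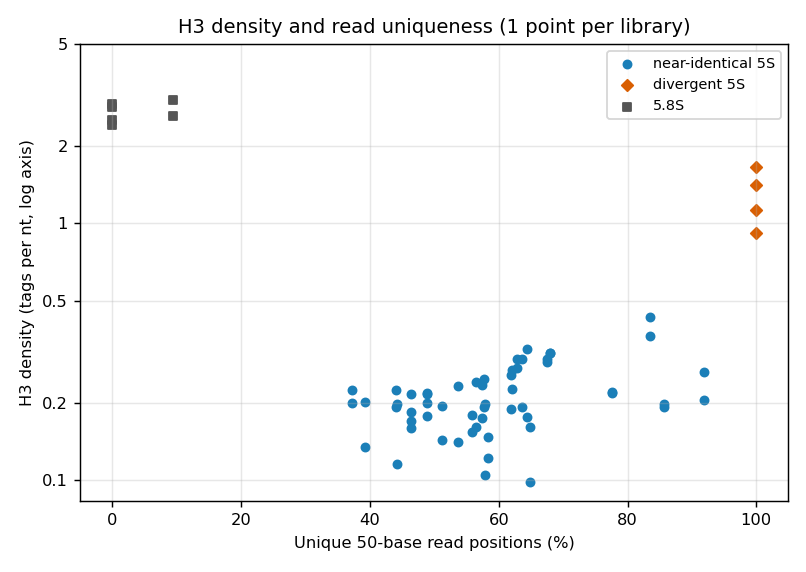
H3 density (tags per nt, log axis) in each H3 library against the share of read positions overlapping the row that are unique in the genome (%). The 28 near-identical 5S copies stay between 0.0986 and 0.433 tags per nt from 37.2 to 91.9% unique positions, while the 3 5.8S rows, with almost no unique position, are at 2.42 to 3.03.

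H3 density was low over the near-identical 5S genes. Their mean H3 density over the 2 replicates ranged from 0.129 to 0.399 tags per nt with a median of 0.207, against a median of 1.24 for protein-coding genes. The highest was SPRRNA.53, at 0.433 and 0.365 in replicates 1 and 2, followed by SPRRNA.07 at 0.312 and 0.313. The lowest were SPRRNA.26, at 0.0986 and 0.160, and SPRRNA.05, at 0.148 and 0.122. The order among the copies was only partly repeated, since log2 H3 density in the 2 replicates correlated over the 28 copies with r = 0.52. The points of this and the following correlations over copies share libraries and, in part, reads.

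Low H3 was also found where more of the reads could be assigned. The 4 near-identical copies with at least 75% unique positions, SPRRNA.12, SPRRNA.15, SPRRNA.35 and SPRRNA.53, had mean H3 densities of 0.195, 0.234, 0.219 and 0.399 tags per nt. Counted per unique position, as would apply had all other reads been discarded, the median of the 28 copies was 0.278 tags, against 1.21 for protein-coding genes. For coding exons from 80 nt to under 200 nt, rows of similar length (n = 2302), the median was 1.08 tags per unique position and 1.51 tags per nt of the row. The H3 density of the copies correlated with their share of unique positions with r = 0.46, and the part of mappability in the differences among copies was not tested further.

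Both acetylation densities, as scaled by library, exceeded the H3 density over these copies. The 28 copies had a median H3K14ac density of 0.485 tags per nt and a median H4ac density of 0.602, with ranges of 0.336 to 1.20 and 0.380 to 1.45. Both medians were below those of protein-coding genes, which were 1.24 and 1.23. Since Input was not analysed, the part of background signal in rows with so few H3 tags was not tested. Both H3K14ac libraries lay above both H3 libraries at 28 of 28 near-identical copies and at 30 of all 33 copies, against 57.9% of the 9089 rows tested. Both H4ac libraries lay above both H3 libraries at 33 of 33 copies, against 57.8%. The replicates ordered the 28 copies more alike for H3K14ac density (r = 0.84) and H4ac density (r = 0.79) than for H3.

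**Figure D2:**
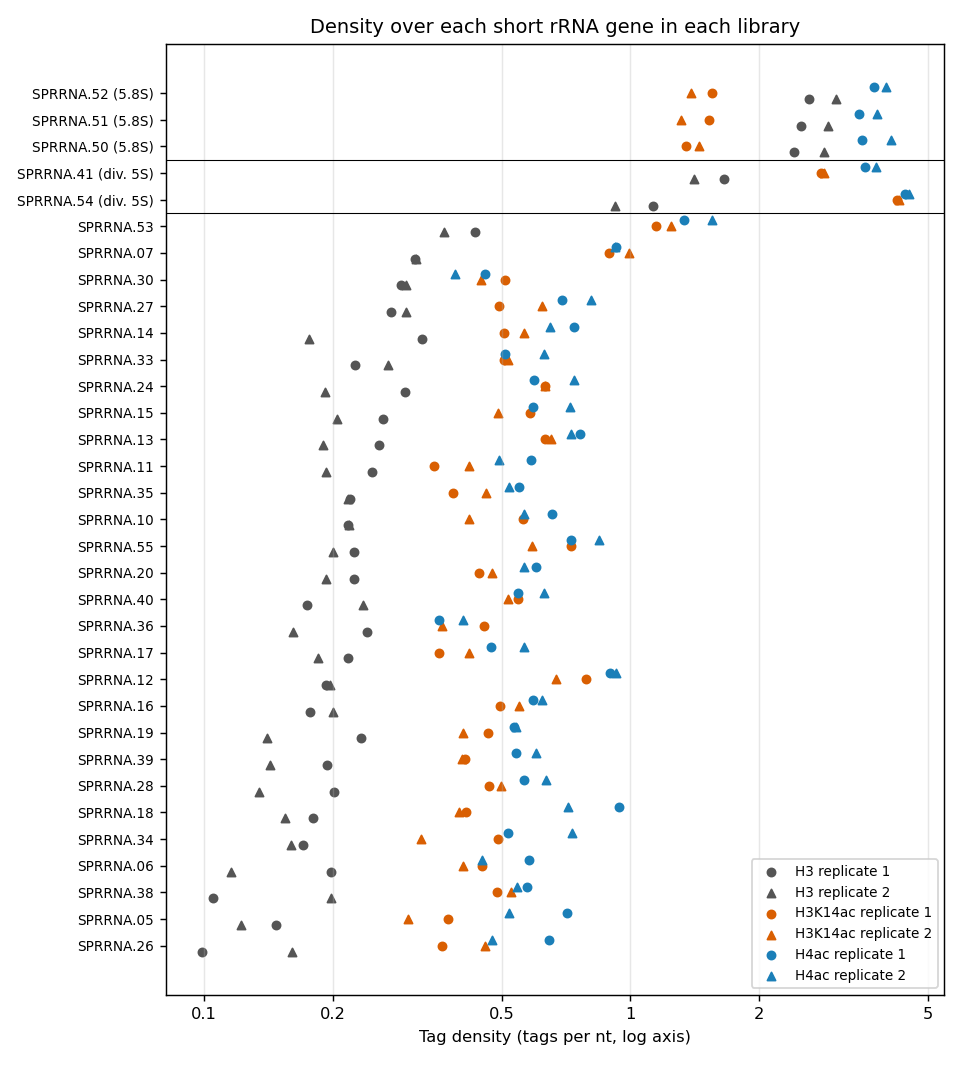
Tag density (tags per nt, log axis) over each of the 33 short rRNA genes in each of the 6 libraries, by class, with 1 marker shape per replicate. In every near-identical 5S copy both H3 points lie to the left of all H3K14ac and H4ac points, the divergent copies SPRRNA.54 and SPRRNA.41 reach mean H3K14ac densities of 4.25 and 2.83, and in the 5.8S rows H3K14ac lies to the left of H3.

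The ratio of each acetylation to H3 was tested for each row with limma on log2(density + 0.01), a scale that understates the difference of rows with low density. All 33 copies passed the filter of a mean density of 0.05 tags per nt. Log2 H3K14ac/H3 was called higher than 0 at an adjusted p under 0.05 in 30 of the 33 copies, the 30 annotated 5S rows, and lower in the 3 5.8S rows. Among all rows tested 56.3% were called higher and 36.8% lower, so that a call by itself is common. A ratio of at least 2-fold was called in 23 of the 33 copies, against 25.9% of all rows. Over the 28 near-identical copies the median log2 H3K14ac/H3 was 1.23, a 2.35-fold ratio, with a range of 0.68 to 1.84 and a median standard error of 0.21. The median over all rows tested was 0.25.

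Log2 H4ac/H3 was called higher in 33 of 33 copies and lower in 0, also at an unadjusted p under 0.05, against 56.0% and 37.1% of all rows. A ratio of at least 2-fold was called in 28 of the 33, against 24.2% of all rows. The median log2 H4ac/H3 of the 28 near-identical copies was 1.52, or 2.88-fold, with a range of 0.50 to 2.23, beside 0.23 over all rows. Over the 28 copies the SD was 0.29 for log2 H3K14ac/H3 and 0.38 for log2 H4ac/H3, beside a median standard error of 0.21 in each. Between replicates the log2 ratios of the 28 copies correlated, with r = 0.32 in the case of H3K14ac/H3 and r = 0.43 in that of H4ac/H3. With the share of unique positions H3K14ac/H3 correlated at r = 0.06 and H4ac/H3 at r = -0.06.

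**Figure D3:**
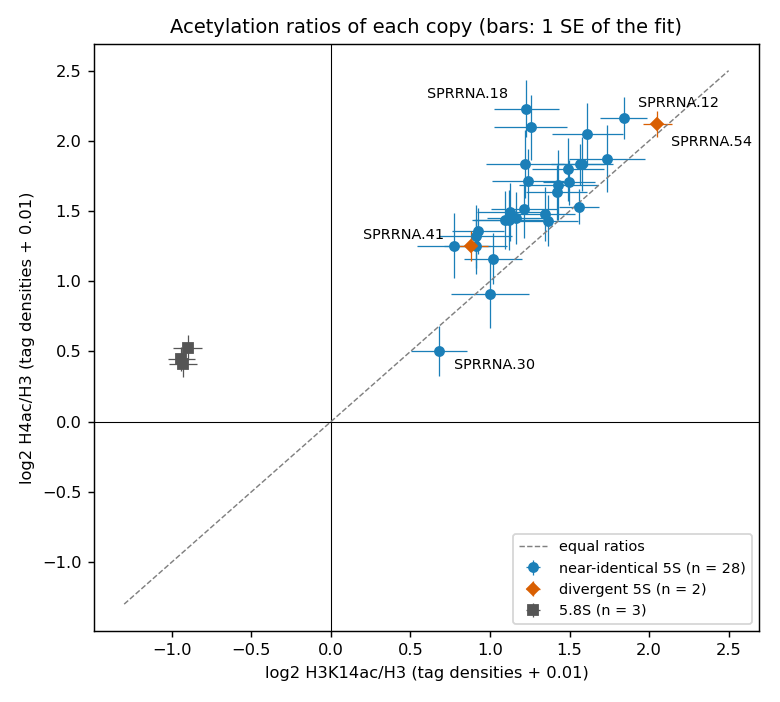
Log2 H4ac/H3 against log2 H3K14ac/H3 of each short rRNA gene (densities + 0.01), with bars of 1 standard error of the limma fit. All 5S copies are above 0 on both axes, from SPRRNA.30 (0.68 and 0.50) to SPRRNA.12 and SPRRNA.54 at the upper end, while the 3 5.8S rows lie at -0.94 to -0.90 for H3K14ac/H3 and at 0.41 to 0.52 for H4ac/H3.

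SPRRNA.12, which carries 3 substitutions, had the highest H3K14ac/H3 of the near-identical copies. Its H3 density was 0.193 and 0.198 tags per nt in replicates 1 and 2, its H3K14ac density 0.786 and 0.668 and its H4ac density 0.894 and 0.925. All 4 acetylation values were thus more than 3 times each H3 value. Log2 H3K14ac/H3 was 1.84 ± 0.15 (SE, adjusted p = 2.6e-10) and log2 H4ac/H3 was 2.16 ± 0.15 (adjusted p = 1.8e-11). SPRRNA.18 had the highest H4ac/H3. Its H3 density was 0.180 and 0.154, its H3K14ac density 0.412 and 0.396 and its H4ac density 0.941 and 0.712, with no overlap between any 2 antibodies. Log2 H4ac/H3 of SPRRNA.18 was 2.23 ± 0.20 (adjusted p = 1.8e-09), a 4.69-fold ratio, beside 1.23 ± 0.20 for H3K14ac/H3.

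SPRRNA.26 and SPRRNA.05, the copies with the lowest H3, had H4ac/H3 ratios of more than 4-fold. H3 is the denominator of this ratio, so that a choice by low H3 favors a high ratio. SPRRNA.26 had 0.361 and 0.456 tags per nt of H3K14ac and 0.643 and 0.473 of H4ac, with log2 ratios to H3 of 1.61 ± 0.22 and 2.05 ± 0.22. Its H3 libraries held only 20 and 30 tags. SPRRNA.05 had 0.372 and 0.301 of H3K14ac and 0.711 and 0.518 of H4ac, with log2 ratios of 1.26 ± 0.23 and 2.10 ± 0.23. The H3 libraries held 21 and 16 tags over SPRRNA.05.

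SPRRNA.30 had the lowest ratios of the near-identical copies. Its H3 density was 0.289 and 0.297 tags per nt, its H3K14ac density 0.507 and 0.446 and its H4ac density 0.455 and 0.387, so that H4ac and H3K14ac overlapped and both lay above H3. Log2 H3K14ac/H3 of SPRRNA.30 was 0.68 ± 0.18 (adjusted p = 0.0012) and log2 H4ac/H3 was 0.50 ± 0.18 (adjusted p = 0.011). Without H4ac replicate 1 the latter was 0.39 with an adjusted p of 0.11, the one H4ac/H3 call among the 33 that was lost when any single library was left out.

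SPRRNA.36 and SPRRNA.11 were also among the lowest. SPRRNA.36, at 0.241 and 0.162 for H3, 0.454 and 0.361 for H3K14ac and 0.355 and 0.406 for H4ac, had a log2 H4ac/H3 of 0.91 ± 0.24 (adjusted p = 0.0017). SPRRNA.11, at 0.248 and 0.193 for H3, 0.347 and 0.418 for H3K14ac and 0.585 and 0.491 for H4ac, had a log2 H3K14ac/H3 of 0.77 ± 0.23 (adjusted p = 0.0036). SPRRNA.11 carries C20T and C118T. SPRRNA.05 carries C20T alone and had a log2 H3K14ac/H3 of 1.26 ± 0.23. SPRRNA.30 carries T12C, as does SPRRNA.40, whose log2 H3K14ac/H3 was 1.34 ± 0.19. Differences between copies, and any part of the substitutions in them, were not tested.

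The 2 divergent 5S rows stood apart in density. SPRRNA.54 had an H3 density of 1.13 and 0.919 tags per nt, an H3K14ac density of 4.22 and 4.28 and an H4ac density of 4.42 and 4.51. These were the highest acetylation densities of the 33 copies. Log2 H3K14ac/H3 was 2.05 ± 0.09 (adjusted p = 7.8e-15) and log2 H4ac/H3 was 2.12 ± 0.09 (adjusted p = 4.9e-15). SPRRNA.41 had an H3 density of 1.66 and 1.41, an H3K14ac density of 2.80 and 2.85 and an H4ac density of 3.55 and 3.77, with log2 ratios of 0.88 ± 0.11 (adjusted p = 1.8e-07) and 1.25 ± 0.11 (adjusted p = 7.5e-10). In both H3 libraries, both rows lay above every near-identical copy. The density of such short rows includes reads that overhang them, and counted per unique position their H3 was 0.710 tags in SPRRNA.54 and 0.952 in SPRRNA.41, against 1.21 for protein-coding genes. Since every read position over them was unique in the reference, these tags can be assigned to the loci as far as reads match it exactly. Reads mapped with mismatches were not examined.

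The 3 5.8S rows had the opposite order of H3 and H3K14ac. SPRRNA.50 had an H3 density of 2.42 and 2.85 tags per nt, an H3K14ac density of 1.35 and 1.45 and an H4ac density of 3.50 and 4.08. SPRRNA.51 had 2.52 and 2.92 for H3, 1.53 and 1.31 for H3K14ac and 3.44 and 3.78 for H4ac. SPRRNA.52 had 2.63 and 3.03 for H3, 1.55 and 1.39 for H3K14ac and 3.73 and 3.97 for H4ac. In each row both H3K14ac libraries lay below both H3 libraries and both H4ac libraries above them. Log2 H3K14ac/H3 was -0.90 ± 0.09 in SPRRNA.50, -0.93 ± 0.09 in SPRRNA.51 and -0.94 ± 0.08 in SPRRNA.52, with a largest adjusted p of 6e-09. Log2 H4ac/H3 was 0.52 ± 0.09, 0.41 ± 0.09 and 0.45 ± 0.08, with a largest adjusted p of 0.00023. The 8 long 18S and 28S rows had similar values, with log2 H3K14ac/H3 from -1.07 to -0.88 and log2 H4ac/H3 from 0.37 to 0.51. The reference holds few of the rDNA repeats and their reads cannot be told apart, so that the 3 5.8S rows are not 3 independent loci and their density pools many repeats.

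H4ac was also compared with H3K14ac. It was called higher in 8 of 33 copies (11 at an unadjusted p under 0.05) and lower in 0 (0 at an unadjusted p under 0.05), against 34.4% higher and 36.4% lower among all rows. Both H4ac libraries lay above both H3K14ac libraries in 26 of the 33 copies, against 42.0% of all rows. The 8 called copies were the 3 5.8S rows, at 1.34 to 1.43 on the log2 scale, SPRRNA.41, at 0.37, and 4 near-identical copies. Of the latter, SPRRNA.18 had a log2 H4ac/H3K14ac of 1.00 ± 0.20 (adjusted p = 0.00023) and SPRRNA.05 one of 0.84 ± 0.23 (adjusted p = 0.0031), followed by SPRRNA.34 (0.61) and SPRRNA.27 (0.43). The count of 8 rested on single libraries: it was 13 without either H3 replicate and 5 without H4ac replicate 2. SPRRNA.05 was not called without H4ac replicate 1 (0.61), nor SPRRNA.41 without H4ac replicate 2 (0.33).

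Each copy was then set against its nearest protein-coding gene, as a measure of the chromatin around it. Of the 30 5S rows, 4 overlap that gene and the others lie 68 to 847 nt from it, while the 5.8S rows lie 6717 to 18291 nt from theirs. The genes nearest to the 5.8S rows have only 13.2% unique positions, so that their densities may pool other loci. SPRRNA.50 and SPRRNA.51 share the same gene, SPCP20C8.01c, and counts over 33 copies include these rows. H3 was called lower than in the gene in 29 of 33 copies and higher in 3, the 5.8S rows. Among the 3972 rows tested in this way, which are neither protein-coding genes nor exons, 55.4% were lower and 32.9% higher. A difference of 2-fold or more was called lower in 28 of the 33 copies, all of them near-identical, against 17.3% of rows. The median log2 difference in H3 of these 28 was -2.52, a 5.74-fold lower density, with a range of -3.25 to -1.83 and a median standard error of 0.13. This error is shared by the antibodies and lay below the counting error of H3 in all near-identical copies except SPRRNA.14 and SPRRNA.24. At SPRRNA.12 it was 0.095 beside a counting error of 0.175, whereas at SPRRNA.14 it was 0.160 beside 0.143 and at SPRRNA.24 0.155 beside 0.147. The errors and adjusted p of these H3 differences are thus too small for most copies.

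H3K14ac and H4ac were also lower than in the gene for most copies, with smaller differences. H3K14ac was called lower in 25 and higher in 6 of 33 copies, against 33.6% and 56.9% of rows, and the median difference of the near-identical copies was -1.20. H4ac was called lower in 23 and higher in 6, against 31.7% and 54.5%, with a median of -1.03 in the near-identical copies. The 6 copies with higher values of each were the 3 5.8S rows, both divergent rows and SPRRNA.53.

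The ratios to H3 were higher in most copies than in their genes, as they were in most rows tested in this way. H3K14ac/H3 was called higher in 23 copies and lower in 1, against 61.0% and 27.5% of rows, and higher by 2-fold or more in 18, against 32.4%. H4ac/H3 was called higher in 32 copies and lower in 0, also at an unadjusted p under 0.05, against 60.9% and 27.7% of rows. It was higher by 2-fold or more in 25, against 30.5%. Over the 33 copies the median log2 difference in H3K14ac/H3 was 1.12, and in H4ac/H3 it was 1.35. Over all rows tested in this way these medians were 0.41 and 0.36. The ratio of a copy showed little relation to that of its gene over the 28 near-identical copies, with r = -0.03 for H3K14ac/H3 and r = 0.20 for H4ac/H3. The copy ratios were only partly repeated between replicates (r = 0.32 and 0.43), so that low values do not show that copy and gene are unrelated. The genes covered a wider range than the copies, with log2 H3K14ac/H3 from -1.23 at qcr1 to 1.71 at dph4.

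**Figure D4:**
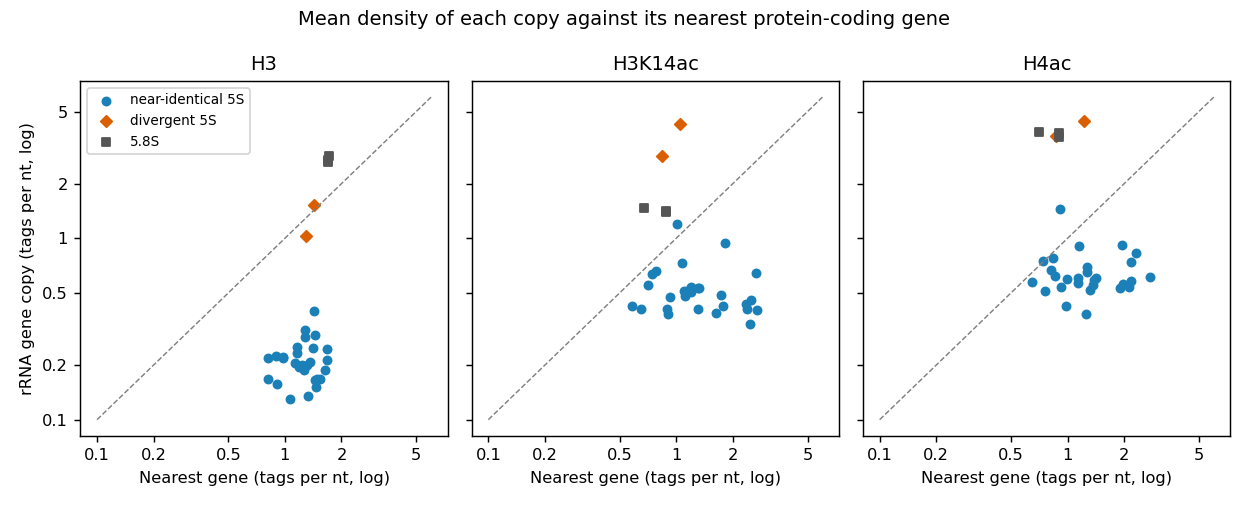
Mean tag density of each short rRNA gene against that of its nearest protein-coding gene for H3, H3K14ac and H4ac (tags per nt, log axes), with a line of equal density. The near-identical 5S copies lie between 0.129 and 0.399 for H3 and below the line in all 28 cases. Among them SPRRNA.53 lies above the line for H3K14ac and H4ac, and SPRRNA.27 just above it for H4ac (0.749 beside 0.741).

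The copies with the largest differences in ratio, among those with at least 50% unique positions, are described first. The ratio of the gene is subtracted in this difference, so that choosing the largest ones favors genes with low ratios. SPRRNA.39 lies 313 nt from qcr1, which encodes a core subunit of mitochondrial respiratory complex III. H3 was 0.194 and 0.143 tags per nt over the copy and 1.53 and 1.56 over qcr1. H3K14ac was 0.410 and 0.402 over the copy and 0.664 and 0.640 over the gene, and H4ac was 0.540 and 0.602 over the copy and 0.651 and 0.646 over the gene. The groups were far apart for H3, which was 8.82-fold lower over the copy, and close for H4ac (-0.18 ± 0.14, adjusted p = 0.26). Log2 H3K14ac/H3 was 2.47 ± 0.20 higher in the copy (adjusted p = 1.3e-05) and log2 H4ac/H3 was 2.96 ± 0.20 higher (adjusted p = 5e-06).

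SPRRNA.24 lies 391 nt from prp11, which encodes an RNA helicase of pre-mRNA splicing. The copy had 0.296 and 0.193 tags per nt of H3, 0.632 and 0.632 of H3K14ac and 0.595 and 0.735 of H4ac. The gene had H3 of 1.67 and 1.69, H3K14ac of 0.726 and 0.762 and H4ac of 0.823 and 0.803, so that the copy and the gene were separated mainly in H3. Log2 H3K14ac/H3 was 2.53 ± 0.22 higher in the copy (adjusted p = 1.7e-05) and log2 H4ac/H3 2.47 ± 0.22 higher (adjusted p = 2.2e-05), while H3K14ac density differed by -0.23 ± 0.15 (adjusted p = 0.19). With fewer unique positions, SPRRNA.55, named after its values were seen, exceeded both in H3K14ac/H3, by 2.66 ± 0.17 against atg1, a kinase gene of autophagy.

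SPRRNA.53 lies 507 nt from Tf2-2, a long terminal repeat retrotransposon. It was the one near-identical copy with acetylation densities called higher than its neighbor, in tags per nt of the row. H3K14ac was 1.15 and 1.25 tags per nt over the copy and 0.998 and 1.02 over Tf2-2, and H4ac was 1.34 and 1.56 over the copy and 0.912 and 0.909 over Tf2-2. The H4ac difference was 0.66 ± 0.09 (adjusted p = 0.00036) and the H3K14ac difference 0.24 ± 0.09 (adjusted p = 0.041). The latter was not called without H3K14ac replicate 1 (0.28), H3K14ac replicate 2 (0.20) or H4ac replicate 2 (0.24). Counted per read position, which includes the overhang, the H3K14ac difference was -0.25 (adjusted p = 0.037) and the H4ac difference 0.17 (adjusted p = 0.13). H3 was 3.54-fold lower over the copy. Only 1.32% of the read positions over Tf2-2 are unique, so that its density may pool several elements. Against ire1, 584 nt away on the other side, SPRRNA.53 had a log2 H3 difference of -1.83 and a log2 H4ac difference of 0.64.

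SPRRNA.13 had 0.257 and 0.189 tags per nt of H3, 0.632 and 0.652 of H3K14ac and 0.762 and 0.724 of H4ac. Its nearest gene SPAPB1A11.05, 782 nt away, had H3 of 0.871 and 0.917, H3K14ac of 2.66 and 2.67 and H4ac of 2.18 and 2.18, so that all 3 densities were lower over the copy. The ratios differed by -0.07 ± 0.17 for H3K14ac/H3 (adjusted p = 0.72) and by 0.43 ± 0.17 for H4ac/H3 (adjusted p = 0.049). Against mfc1, 831 nt away on the other side, they were 1.36 (adjusted p = 4.1e-08) and 2.33 higher. The H4ac/H3 call against the nearest gene was lost without H3 replicate 2 (0.18), H3K14ac replicate 1 (0.43), H3K14ac replicate 2 (0.43), H4ac replicate 1 (0.39) or H4ac replicate 2 (0.47).

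SPRRNA.18 lies 224 nt from dph4, which had 0.794 and 0.825 tags per nt of H3, 2.77 and 2.59 of H3K14ac and 2.32 and 2.33 of H4ac. It was the one copy called lower than its gene in H3K14ac/H3, with a difference of -0.48 ± 0.19 (adjusted p = 0.046), while H4ac/H3 was 0.72 ± 0.19 higher (adjusted p = 0.0092). The H3K14ac/H3 call was lost without H3 replicate 1 (-0.35), H3K14ac replicate 1 (-0.46), H3K14ac replicate 2 (-0.51) or H4ac replicate 1 (-0.48), and the H4ac/H3 call without H4ac replicate 1 (0.52). Against hsp90, a chaperone gene 504 nt away on the other side, H3K14ac/H3 of SPRRNA.18 was instead 0.77 higher.

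**Figure D5:**
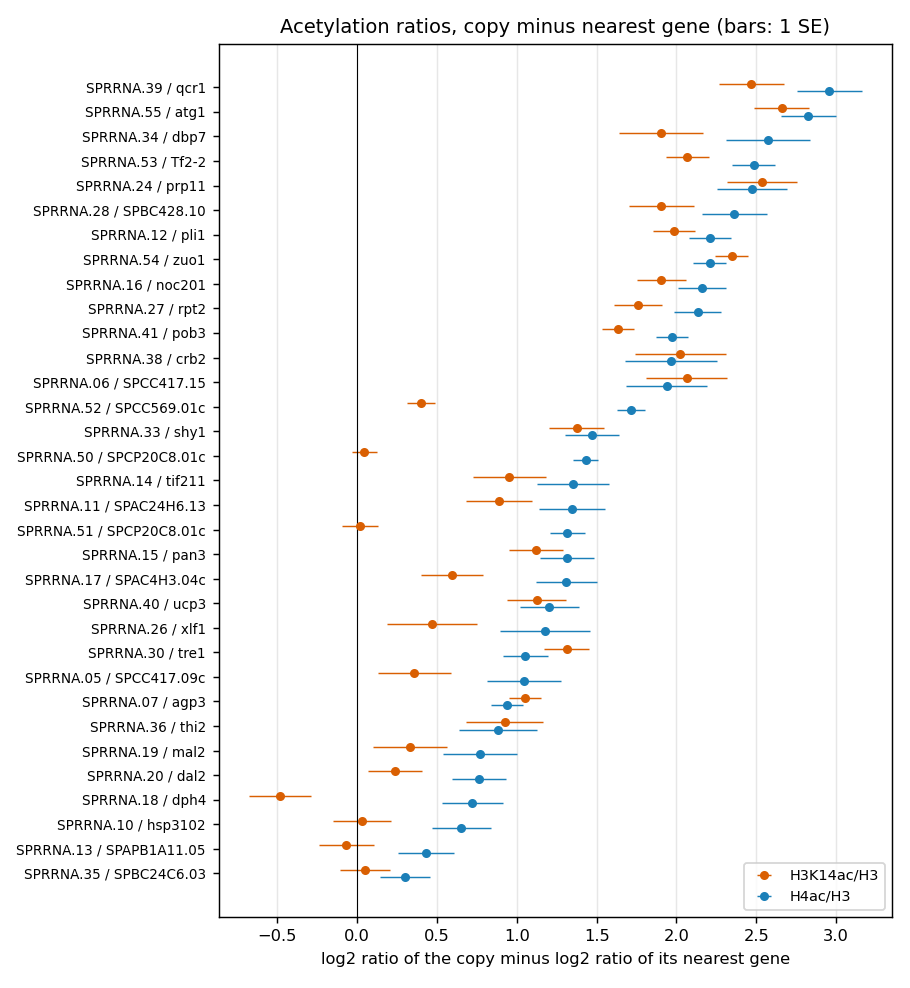
Log2 acetylation ratio of each short rRNA gene minus that of its nearest protein-coding gene, for H3K14ac/H3 and H4ac/H3, with bars of 1 standard error of the limma fit. H4ac/H3 differences run from 0.30 at SPRRNA.35 to 2.96 at SPRRNA.39, and SPRRNA.18 is the one copy called below 0 for H3K14ac/H3.

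The 4 copies inside annotated genes also had lower H3 than the gene. Tags over such a copy can count toward the gene as well. SPRRNA.15 overlaps pan3, a subunit of a poly(A) nuclease, and had 0.263 and 0.205 tags per nt of H3, 0.583 and 0.489 of H3K14ac and 0.590 and 0.720 of H4ac. The gene had H3 of 1.16 and 1.15, H3K14ac of 1.22 and 1.17 and H4ac of 1.22 and 1.32. H3 was 4.82-fold lower over the copy (-2.27 ± 0.12 on the log2 scale, adjusted p = 1.4e-06), and the ratios were 1.12 ± 0.17 and 1.32 ± 0.17 higher.

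SPRRNA.07 overlaps agp3 and had 0.312 and 0.313 tags per nt of H3, 0.890 and 0.990 of H3K14ac and 0.927 and 0.918 of H4ac, against H3 of 1.27 and 1.29, H3K14ac of 1.81 and 1.83 and H4ac of 1.93 and 1.95 over the gene. Its ratios were 1.05 ± 0.10 and 0.94 ± 0.10 higher than those of agp3. SPRRNA.10 overlaps hsp3102, a gene of the Hsp31 family, and had H3 of 0.217 and 0.218, H3K14ac of 0.560 and 0.418 and H4ac of 0.654 and 0.562, against H3 of 0.821 and 0.807, H3K14ac of 1.76 and 1.72 and H4ac of 1.46 and 1.36. Its H3K14ac/H3 differed by 0.03 ± 0.18 (adjusted p = 0.88) and its H4ac/H3 by 0.65 ± 0.18 (adjusted p = 0.011), a call lost without H4ac replicate 1 (0.59). SPRRNA.35 overlaps SPBC24C6.03 and had H3 of 0.219 and 0.218, H3K14ac of 0.383 and 0.459 and H4ac of 0.548 and 0.519, against H3 of 0.991 and 0.964, H3K14ac of 1.77 and 1.80 and H4ac of 1.97 and 1.83. Its ratios differed by 0.05 ± 0.16 (adjusted p = 0.78) and 0.30 ± 0.16 (adjusted p = 0.11), which made it the one copy of 33 whose H4ac/H3 difference to the gene was not called. All 3 densities were thus lower than in the gene at each of the 4 loci, in both replicates.

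SPRRNA.12 lies 375 nt from pli1, which encodes a SUMO ligase. The gene had 1.16 and 1.20 tags per nt of H3, 1.05 and 1.08 of H3K14ac and 1.16 and 1.12 of H4ac. H3 was 5.81-fold lower over the copy (-2.54 ± 0.09, adjusted p = 2.4e-07) and H4ac 1.26-fold lower (-0.33 ± 0.09, adjusted p = 0.013). The H4ac call was lost without H4ac replicate 1 (-0.28) or H4ac replicate 2 (-0.38), and against SPAC1687.07, 1260 nt away on the other side, the H4ac difference was 0.32 (adjusted p = 0.0095).

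SPRRNA.54 lies 584 nt from zuo1, a ribosome-associated co-chaperone gene with 1.29 and 1.30 tags per nt of H3, 1.07 and 1.04 of H3K14ac and 1.23 and 1.20 of H4ac. H3 was 1.27-fold lower in SPRRNA.54 (-0.34 ± 0.07, adjusted p = 0.0029) and H3K14ac 4.01-fold higher (2.00 ± 0.07, adjusted p = 1.1e-07). Counted per unique position, the log2 differences to zuo1 were -0.82 for H3 and 1.52 for H3K14ac. SPRRNA.41 lies 220 nt from pob3, which encodes a subunit of the FACT histone chaperone, with 1.43 and 1.43 of H3, 0.851 and 0.838 of H3K14ac and 0.859 and 0.869 of H4ac. H3 differed by 0.10 ± 0.07 (adjusted p = 0.23) and H4ac was 4.20-fold higher in SPRRNA.41 (adjusted p = 1.2e-07). The H3 difference was -0.02 without H3 replicate 1 and 0.21, a call, without H3 replicate 2. The 80-nt row has 129 read positions, all unique, and counted per unique position the difference to pob3 was -0.55 (adjusted p = 0.00016) for H3 and 1.42 (adjusted p = 6.7e-07) for H4ac. Against rpl29, a ribosomal protein gene 677 nt away on the other side, the ratios of SPRRNA.41 were lower, the H3K14ac/H3 difference being -0.75 and the H4ac/H3 difference -0.51.

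Values of other classes are set beside those of the copies without a test between classes. The 171 nuclear tRNA genes, also transcribed by RNA polymerase III, had an H3 density with a median of 0.192, beside 0.207 in the near-identical 5S copies. Their median H3K14ac density was 0.367 and their median H4ac density 0.543, and the median log2 values were 0.92 (H3K14ac/H3) and 1.50 (H4ac/H3). H3 was called lower than in the nearest gene for 171 of 171 tRNA genes, with a median log2 difference of -2.69. The 28 tRNA genes with at least 90% unique positions had a median H3 density of 0.172. Counted per unique position, their median H3 was lower than in the 5S copies, at 0.107 tags. It was 0.278 in the 28 near-identical copies and 0.203 in the 4 of these with at least 75% unique positions. Noncoding rows under 200 nt that are neither tRNA nor rRNA genes had a median H3 density of 0.745 (n = 123), and the 8 long rRNA rows had one of 2.21. Raised ratios were not limited to the 5S copies. In these noncoding rows the median log2 H3K14ac/H3 was 0.96 and the median log2 H4ac/H3 was 1.13 (122 rows past the filter). For coding exons from 80 nt to under 200 nt the medians were 0.87 and 0.59, beside 1.23 and 1.52 in the near-identical 5S copies.

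Genes of the 5S pathway were examined as a list chosen by function, of which 31 of 37 symbols were found in the annotation. They encode proteins that bind 5S rRNA, TFIIIA, TFIIIC, TFIIIB, RNA polymerase III subunits, the repressor Maf1 and the La protein. H3K14ac/H3 was called higher in 21 and lower in 10 of the 31, and H4ac/H3 higher in 20 and lower in 7, with medians of 0.32 and 0.33. These shares stand beside the 56.3% and 56.0% of all rows called higher, and the 36.8% and 37.1% called lower. Among the 6 genes of the 5S ribonucleoprotein, 5 were higher in each ratio. The TFIIIA gene sfc2 had log2 ratios of 0.26 and 0.58, and the 3 TFIIIB genes were called lower in H3K14ac/H3, but only 1 of the 3 in H4ac/H3.

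The highest H3K14ac/H3 of the list was that of rpl1102, a ribosomal protein L11 gene, at 1.47 ± 0.05, with 0.648 and 0.705 tags per nt of H3 and 1.94 and 1.84 of H3K14ac. The highest H4ac/H3 was that of rpc10, an RNA polymerase subunit gene, at 1.34 ± 0.05, with 0.966 and 0.921 of H3 and 2.44 and 2.37 of H4ac. The lowest of both was that of rpc1, the gene of the largest subunit of RNA polymerase III, at -1.19 and -1.17, with 1.58 and 1.57 of H3, 0.693 and 0.671 of H3K14ac and 0.713 and 0.671 of H4ac. The mean H3 density of every gene of this list, at least 0.676 tags per nt, was above that of every near-identical 5S copy.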

How the data were processed

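ChIP-seq libraries for H3, H3K14ac and H4ac, 2 biological replicates each, were analysed from 1 deposited table of 19343 annotated rows. Per the labels and the study's methods, the authors mapped 50-nt single-end reads with Bowtie2 to ASM294v2 and deposited a signal, the tag density (tags per nt) of each row and library. The counter and the scaling were not given in the sources used here. The densities multiplied by row length were whole multiples of 1 step per library in 100% of rows (tolerance 0.02), from which tags were counted. The 3 groups were fitted in limma 3.58.1 (R 4.3.3) on log2(density + 0.01), with 1 mean per group, a prior variance following log2 mean tags per row, rows of a mean density of at least 0.05 tags per nt, Benjamini-Hochberg adjustment over all rows and a call at an adjusted p under 0.05. Ratios were fitted over 9089 nuclear rows without coding exons. Differences to the nearest protein-coding gene were fitted over 3972 rows. Standard errors are shared by the 3 antibodies, although H3 had the fewest tags over the near-identical copies. For H3 and ratios to it, errors and adjusted p can therefore be smaller than tag counting allows. For the H3 difference to the gene this was so in most near-identical copies. The fits were tested on simulated data.

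Copies named with values had the 2 highest or 2 lowest mean H3 density, log2 ratio or ratio difference among copies with at least 50% unique positions, differed from the commonest sequence by 3 or more bases, overlapped a gene or were not 5S. Members and lists were chosen with earlier results of these data known. A position was called unique when its 50-base sequence occurs once in the RefSeq genome ASM294v3, both strands considered. Names came from its annotation for 5111 of 5129 gene rows. Alternatives were another pseudocount, filter, scaling, prior or set of rows, weights by tags, leaving out each library, the replicate number as a block, well-mapped or near-identical copies, densities per read position or per unique position, the gene on the other side, and copies outside genes. Replicates were not treated as paired in the main fit. Deviations of same-numbered libraries correlated with r = -0.07, -0.01 and 0.07 over rows, which does not settle whether they came from the same culture.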

Additional observations from a re-analysis of the deposited data

How the results depend on the processing

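Across the alternatives, the 30 5S copies stayed higher and the 3 5.8S copies lower in H3K14ac/H3, and all near-identical copies stayed lower in H3 than their gene. What limits these values is depth, with 15 to 68 H3 tags per near-identical copy and library, and reads that several copies share. The choices of near-identical copies, weights by tags and tags per unique position were made after seeing the data. The causes of the changes listed were not tested beyond what each setting removes.

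With a pseudocount of 0.1 the median log2 ratios of the copies were 0.92 (H3K14ac/H3), 1.20 (H4ac/H3) and 0.27 (H4ac/H3K14ac). The median differences to the gene were then -1.99 (H3), -1.03 (H3K14ac), -0.81 (H4ac), 0.86 (H3K14ac/H3) and 1.23 (H4ac/H3), and the H3K14ac/H3 difference turned to -0.13 at SPRRNA.10, -0.10 at SPRRNA.35 and -0.0084 at SPRRNA.51. With a pseudocount of 0.001 the median H3K14ac difference was -1.17 and 0 copies were lower than their gene in H3K14ac/H3. That count was also 0 with weights by tags or a prior following density. Weights by tags and the prior following density each gave 14 copies higher in H4ac/H3K14ac, and with weights the median H3K14ac difference was -1.14.

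Among the 22 copies with at least 50% unique positions, 0 were lower in H3K14ac/H3 and 4 higher in H4ac/H3K14ac. Against the gene, 0 of them were higher in H3, 3 in H3K14ac, 3 in H4ac and 21 in H4ac/H3, with medians of -2.26 (H3), -1.18 (H3K14ac) and -1.03 (H4ac). Among the 28 near-identical copies the counts were 0 lower in H3K14ac/H3 and 4 higher in H4ac/H3K14ac, and against the gene 0 higher in H3, 1 in H3K14ac and 1 in H4ac, with medians of -1.20 (H3K14ac) and -1.03 (H4ac). For copies outside genes the median differences were 1.31 (H3K14ac/H3), -0.77 (H4ac) and 1.47 (H4ac/H3).

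Per read position the median differences were -2.74 (H3), -1.54 (H3K14ac) and -1.31 (H4ac), with -0.55 for H3 at SPRRNA.41 and -0.25 for H3K14ac at SPRRNA.53. Per unique position (29 copies) they were -2.03, -0.84 and -0.69, with 0 copies higher in H3, -0.55 for H3 at SPRRNA.41, 0.10 for H3K14ac and 0.040 for H4ac at SPRRNA.24 and 0.31 for H4ac at SPRRNA.39. Against the gene on the other side (30 copies) the medians were -2.57 (H3), -1.10 (H3K14ac), -0.69 (H4ac), 1.43 (H3K14ac/H3) and 1.65 (H4ac/H3), with 1 copy higher in H3, 3 higher in H3K14ac and 1 lower in H4ac/H3. There H4ac was 0.32 at SPRRNA.12, H3K14ac/H3 was 1.36 at SPRRNA.13, 0.77 at SPRRNA.18 and -0.75 at SPRRNA.41, and H4ac/H3 was -0.51 at SPRRNA.41.

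With single libraries left out, where a lone library is assumed to vary like the others, the median H3K14ac/H3 was 1.07 to 1.31, the copies higher in H4ac/H3K14ac numbered 5 to 13 and those lower than their gene in H3K14ac/H3 0 to 1. The median differences to the gene were -2.44 to -2.28 (H3), -1.15 to -1.09 (H3K14ac), 1.04 to 1.25 (H3K14ac/H3) and 1.35 to 1.51 (H4ac/H3). H3 at SPRRNA.41 was -0.019 to 0.21, and H3K14ac/H3 was -0.32 to 0.18 at SPRRNA.13, -0.032 to 0.12 at SPRRNA.50, -0.16 to 0.22 at SPRRNA.10, -0.071 to 0.17 at SPRRNA.35 and -0.15 to 0.18 at SPRRNA.51. With the replicate number as a block, which the main fit left out, 30 copies were higher and 3 lower in H3K14ac/H3, and 33 higher in H4ac/H3. Against the gene, 29 were lower in H3 under the block, and the H3K14ac call of SPRRNA.53 was lost (adjusted p = 0.059).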

Other observations

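The 6 annotated 5S rows of 200 nt or more hold the same 119-nt gene within longer rows, and 4 of the 6 contain it without a difference. Their mean H3 density was 0.127 to 0.385 tags per nt. They differed in acetylation. SPRRNA.31, a row of 246 nt, had H3 of 0.326 and 0.289 tags per nt, H3K14ac of 1.09 and 1.09 and H4ac of 1.65 and 1.41, a log2 H3K14ac/H3 of 1.80 and a log2 H4ac/H3 of 2.28. SPRRNA.32, the longest row with 440 nt, had H3 of 0.400 and 0.370, H3K14ac of 0.420 and 0.418 and H4ac of 0.623 and 0.636, with log2 ratios of 0.12 and 0.69. Both were named after their values were seen, as the highest and the lowest H3K14ac/H3 of the 6, and longer rows include more flank, whose part in these values was not tested.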
